A study of Schizosaccharomyces pombe with 2 samples.

Results

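The genes described here are the fission yeast genes whose standard name is mug and a number, mug standing for meiotically upregulated. They were taken by name from the deposited table of introns of Schizosaccharomyces pombe, which lists 5374 introns of 2548 genes. Of these, 72 introns of 33 genes belong to mug genes, and 49 introns of 24 mug genes had at least 20 reads in each of the 2 libraries and are called measured below. The 34 °C library came from pat1_as2 prp2-1 cells in meiosis I that had spent 1 h at 34 °C, the restrictive temperature, and the 25 °C library from the other part of the same culture, kept at 25 °C, the permissive temperature. The cells had been arrested in G1 by nitrogen starvation and induced chemically into synchronous meiosis. By the titles of the samples, both libraries were taken at the same culture time. Pat1 is the kinase that holds fission yeast back from meiosis. Every cell carried prp2-1, which makes the large subunit of U2AF temperature-sensitive, so loss of Prp2 and the warmer temperature itself cannot be told apart. There was 1 library per temperature and no strain with normal Prp2, so no difference has a replicate check, and the tests speak of these libraries alone.

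The mug genes were named for their transcription during meiosis and share no family or pathway. Their products include membrane adaptors, RNA-binding proteins, kinases and builders of the spore wall, and many are known by name alone. U2AF binds the pyrimidine-rich tract and the AG at the end of an intron and helps the spliceosome recognise the intron before splicing begins. Fission yeast introns are short, and several meiotic genes of this yeast are known to be spliced under regulation. An intron that stays in the mRNA of a coding gene usually brings in a stop codon or shifts the reading frame.

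The table gives spliced and unspliced reads per intron. Unspliced reads as a percentage of both kinds are called the unspliced share. The 34 °C library held 493659 reads, of which 39.9% were unspliced, and the 25 °C library held 636989 reads, of which 6.56% were unspliced. Of 8 genes taken as marks of the meiotic stage, spo6 had 33707 reads at 34 °C and 16118 at 25 °C, and spo5 had 91 at 34 °C and 79 at 25 °C. The other way round, spo4 had 2715 at 34 °C and 5934 at 25 °C, mes1 had 577 at 34 °C and 1003 at 25 °C, and mfr1 had 564 at 34 °C and 914 at 25 °C. The genes rec8 and meu13 had at most 12 reads in either library, and mei4 has no intron in the table. Intervals of shares are exact Clopper-Pearson 95% intervals and intervals of changes are Newcombe 95% intervals. Where a count is 0, the share it allows is given as 3 counts of the total, a simpler limit that lies somewhat below the upper bound of the exact interval. All of these cover counting error only, and PCR copies of a molecule would make them too narrow.

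The introns that the following results turn on are printed from 5′ to 3′ as in the ASM294v3 assembly. Capitals mark the 6 bases of the 5′ splice site, the final AG and, where there is one, the last exact match in the final 60 nt to one of 4 usual branch-site words. The first is CTAAC. The others are its variant CTAAT, the word CTGAC, and the variant of that word, CTGAT. The first set holds pairs of introns of 1 gene whose unspliced shares lay far apart in a library.
mug137 intron 1, chrIII:2231787-2231852, plus strand: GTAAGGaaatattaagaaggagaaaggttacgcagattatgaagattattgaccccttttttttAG
mug137 intron 6, chrIII:2232896-2232942, plus strand: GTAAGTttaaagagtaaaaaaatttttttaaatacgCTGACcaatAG
mug64 intron 3, chrI:1135685-1135728, minus strand: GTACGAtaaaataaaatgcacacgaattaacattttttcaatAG
mug64 intron 2, chrI:1135403-1135516, minus strand: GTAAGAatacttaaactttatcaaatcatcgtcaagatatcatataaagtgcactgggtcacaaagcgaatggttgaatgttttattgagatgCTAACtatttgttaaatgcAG
mug126 intron 4, chrI:4846064-4846103, plus strand: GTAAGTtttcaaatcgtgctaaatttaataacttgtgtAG
mug126 intron 3, chrI:4845825-4845862, plus strand: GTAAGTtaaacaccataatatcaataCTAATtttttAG
mug161 intron 2, chrI:635236-635348, plus strand: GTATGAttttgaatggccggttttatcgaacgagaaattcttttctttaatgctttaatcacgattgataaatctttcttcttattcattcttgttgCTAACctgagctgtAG
mug161 intron 3, chrI:636177-636233, plus strand: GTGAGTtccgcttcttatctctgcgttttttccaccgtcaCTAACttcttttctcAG
The second set holds introns of other genes that show the span of changes described below, with large changes in mug157, mug4, mug74 and mug170, a moderate one in the deeply read mug98 and a small one in mug93.
mug157 intron 1, chrI:4602982-4603146, minus strand: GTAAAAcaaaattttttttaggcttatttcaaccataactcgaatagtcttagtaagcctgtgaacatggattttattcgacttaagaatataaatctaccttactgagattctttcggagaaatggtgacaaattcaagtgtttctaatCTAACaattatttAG
mug4 intron 1, chrIII:807578-807633, minus strand: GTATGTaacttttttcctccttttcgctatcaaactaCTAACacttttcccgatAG
mug74 intron 1, chrI:3094174-3094228, minus strand: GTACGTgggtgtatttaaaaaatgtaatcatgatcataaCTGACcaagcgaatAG
mug170 intron 1, chrIII:2395325-2395362, plus strand: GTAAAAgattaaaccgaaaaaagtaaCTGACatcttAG
mug98 intron 1, chrII:3032058-3032095, minus strand: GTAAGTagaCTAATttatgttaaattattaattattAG
mug93 intron 2, chrII:1461945-1462098, plus strand: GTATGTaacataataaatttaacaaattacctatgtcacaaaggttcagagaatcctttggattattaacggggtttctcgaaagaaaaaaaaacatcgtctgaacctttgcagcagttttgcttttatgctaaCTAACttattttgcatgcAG

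Nearly every measured mug intron was less completely spliced at 34 °C. Of 49 introns, 46 rose in unspliced share and 0 fell. The test was Fisher's exact test, two-sided, adjusted by Benjamini-Hochberg over all 2508 measured introns of the table. Without adjustment, 48 were higher and 0 lower at the same level of 0.05. Of all 2508 measured introns, 2099 passed that level without adjustment, counting both directions. With adjustment, 82.6% of measured introns across the table rose. The mug introns were also read more deeply, with a median of 142 reads at 34 °C and 200 at 25 °C, against 78 at 34 °C and 71 at 25 °C for all measured introns, and the part of depth in the number of calls was not tested. The 3 introns without a call were intron 3 of mug161 and introns 2 and 4 of mug64.

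The median unspliced share of the mug introns was 50.7% at 34 °C and 5.26% at 25 °C, and that of all measured introns was 41.4% at 34 °C and 5.60% at 25 °C. The median change was 38.5 percentage points for the mug introns (quartiles 22.1 and 59.2) and 32.3 points for all measured introns. The changes of the mug introns ran from 4.94 points in intron 2 of mug64 to 81.0 points in intron 2 of mug27. More than 50% of reads were unspliced at 34 °C in 25 of the 49 mug introns, and at 25 °C in 1, intron 3 of mug161. Over all 2508 measured introns this was so in 990 (39.5%) at 34 °C and in 39 at 25 °C. For comparison, genes named meu, mde or mcp and a number, which are also named for meiosis, had 20 of 21 measured introns called higher and a median change of 44.8 points.

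**Figure D1:**
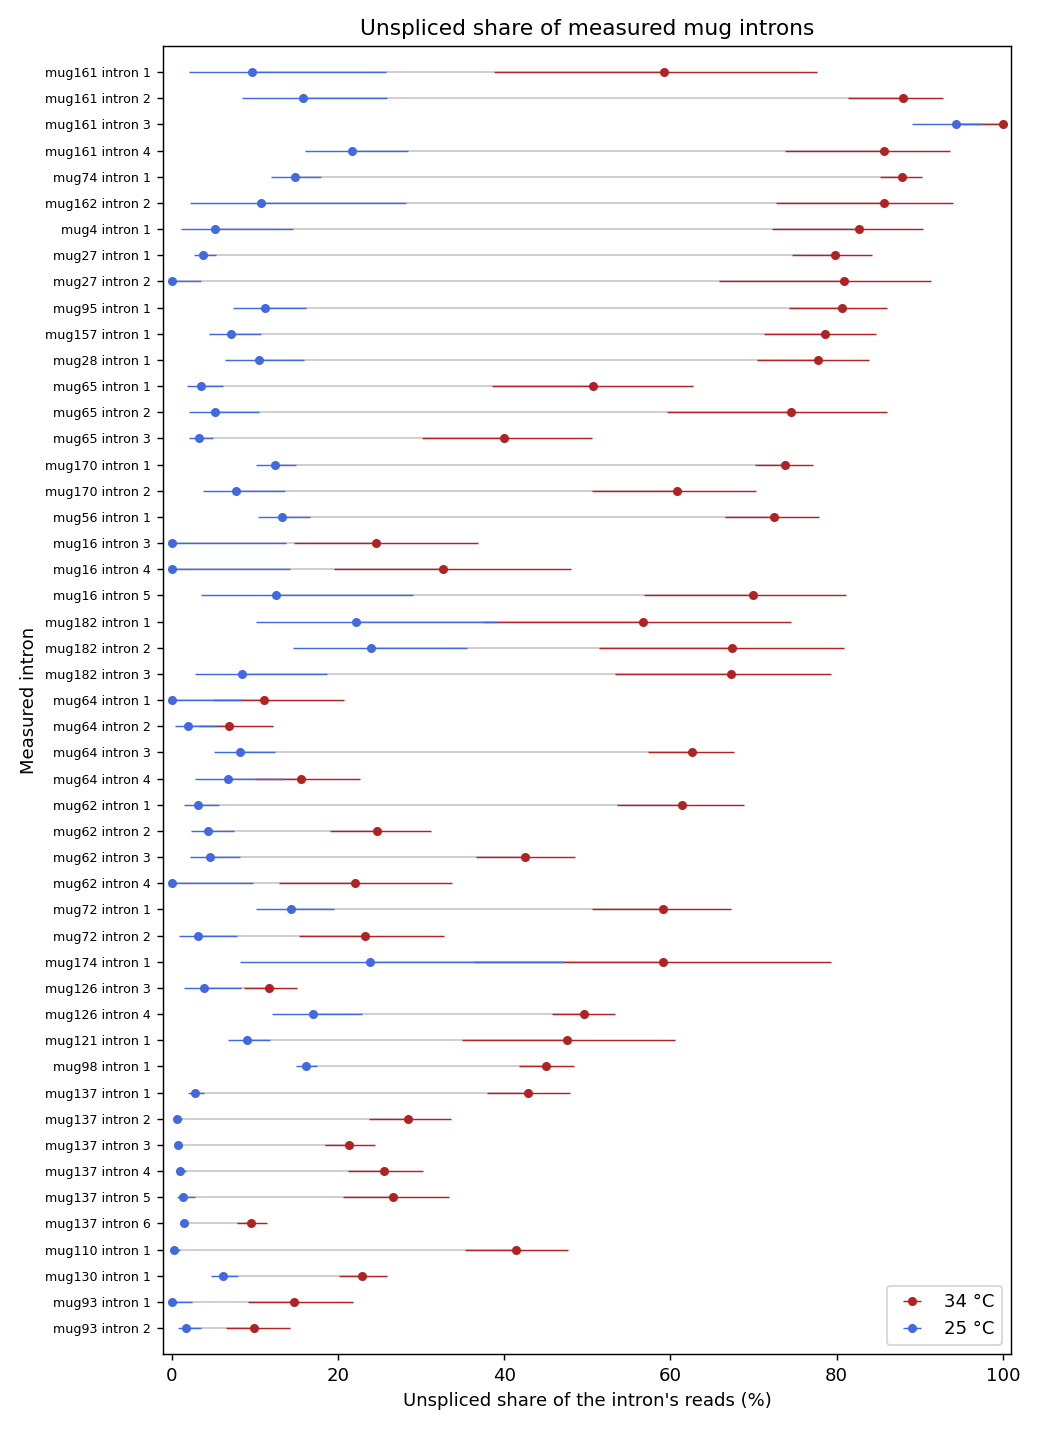
Unspliced share in percent (x axis) of each measured mug intron (rows, ordered by gene), at 34 °C in red and at 25 °C in blue, with exact 95% intervals for counting error. In every row the 34 °C point lies right of the 25 °C point, by 4.94 points in intron 2 of mug64 and by 81.0 points in intron 2 of mug27.

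**Figure D2:**
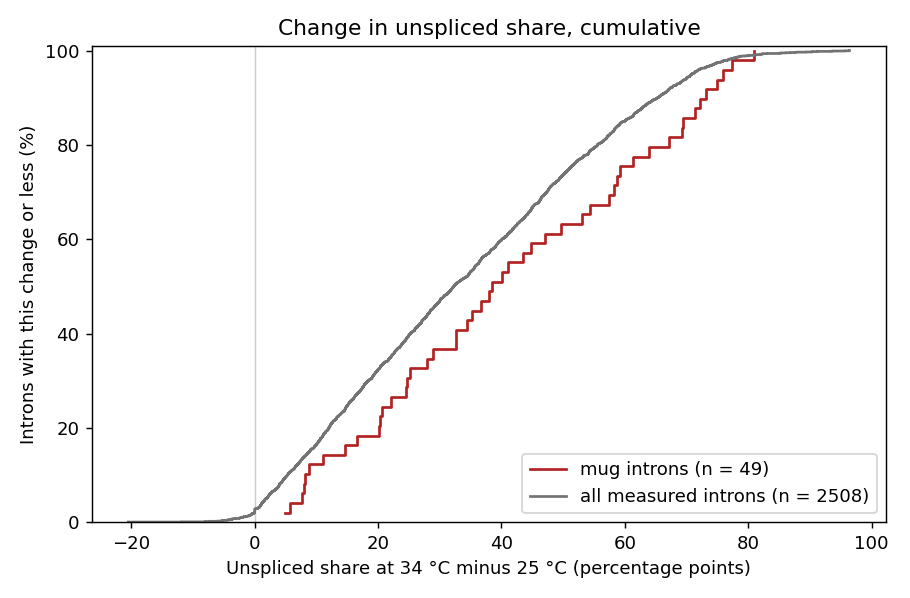
Cumulative percentage of introns (y axis) against the change in unspliced share, 34 °C minus 25 °C, in percentage points (x axis), for the 49 measured mug introns in red and all 2508 measured introns of the table in grey. The median is 38.5 points for the mug introns and 32.3 points for all introns, and the line of the mug introns starts at 4.94 points.

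Genes for BAR domain, arrestin family and UNC-50 family proteins were grouped as membrane-related genes. This group gave 15 measured introns in 4 genes, of which 13 rose (86.7%, beside 82.6% of all measured introns). The median change was 25.2 points, beside 32.3 points for all. The most deeply read was mug137, which encodes a protein with a BAR domain, a module that binds curved membranes. All 6 of its introns rose, and none passed 50% unspliced at 34 °C. Intron 1 was 42.9% unspliced at 34 °C (168 of 392 reads, interval 37.9 to 47.9) and 2.76% at 25 °C (34 of 1233, 1.92 to 3.83). Intron 2 was 28.5% unspliced at 34 °C and 0.596% at 25 °C, the lowest 25 °C share above 0 but that of mug110. Intron 6, the last, was 9.54% unspliced at 34 °C (102 of 1069 reads, 7.85 to 11.5) and 1.47% at 25 °C (52 of 3540, 1.10 to 1.92). The change of intron 6 was therefore 8.07 points, the smallest of the 6, against 40.1 points (35.2 to 45.1) in intron 1. Introns 3, 4 and 5 lay between them, at 21.4%, 25.5% and 26.6% unspliced at 34 °C.

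Another BAR domain gene, mug64, had introns that stood far apart at 34 °C. Intron 3 rose to 62.6% unspliced at 34 °C (219 of 350 reads, 57.3 to 67.7), against 8.23% at 25 °C (20 of 243, 5.10 to 12.4). Intron 1 rose to 11.1% at 34 °C (8 of 72), against 0 of 42 reads at 25 °C, which allows a share of up to 7.14% (adjusted p = 0.0316, Fisher's exact test). Introns 2 and 4 were mostly spliced in both libraries and were not called. Intron 2 had 6.85% at 34 °C (10 of 146) and 1.91% at 25 °C (3 of 157), a difference of 4.94 points (0.230 to 10.4) with an adjusted p of 0.0551 by Fisher's exact test. Intron 4 had 15.6% at 34 °C (22 of 141) and 6.80% at 25 °C (7 of 103), a difference of 8.81 points (0.508 to 16.5) with an adjusted p of 0.0539 by Fisher's exact test. As printed above, intron 3 is 44 nt long, starts with GTACGA and holds none of the 4 branch-site words. Intron 2 is 114 nt long, starts with GTAAGA and holds CTAAC. Whether these features bear on the difference was not tested.

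Both measured introns of mug170, which encodes an arrestin-like adaptor, were mostly unspliced at 34 °C. Intron 1 rose to 73.8% at 34 °C (456 of 618 reads, 70.1 to 77.2), against 12.4% at 25 °C (95 of 766, 10.2 to 14.9). Intron 2 rose to 60.8% at 34 °C, against 7.69% at 25 °C. As printed above, intron 1 starts with GTAAAA and holds CTGAC. In mug16, for a protein of the UNC-50 family of vesicle transport, the 3 measured introns rose to 24.6%, 32.6% and 70.0% at 34 °C, against 0 of 25, 0 of 24 and 4 of 32 reads at 25 °C. A count of 0 of 25 reads allows a share of up to 12.0%.

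Among genes for RNA-binding and RNA-processing proteins, 5 of 6 measured introns in 3 genes rose (83.3%, beside 82.6% of all measured introns). All 6 were more than 50% unspliced at 34 °C, as were 39.5% of all measured introns. Intron 1 of mug28, which encodes an RNA-binding protein needed for normal spore formation, rose to 77.7% at 34 °C (122 of 157 reads, 70.4 to 84.0), against 10.5% at 25 °C (19 of 181, 6.44 to 15.9). The intron of mug174 with enough reads, in a gene for the fission yeast coilin, a protein of nuclear bodies, rose to 59.1% at 34 °C (13 of 22), against 23.8% at 25 °C (5 of 21). Its interval of change was wide, 5.83 to 57.3 points, and its adjusted p by Fisher's exact test was 0.0375.

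The gene mug161 encodes a splicing factor of the CwfJ family, and all 4 of its introns were more than 50% unspliced at 34 °C. In intron 3 all 72 reads were unspliced at 34 °C, and 94.3% were unspliced at 25 °C (133 of 141 reads, 89.1 to 97.5). A count of 0 spliced reads among 72 allows a spliced share of up to 4.17%. This difference of 5.67 points (-0.0998 to 10.8) was not called (adjusted p = 0.0638, Fisher's exact test). It was also the largest rise possible from the 25 °C share, since every read at 34 °C was unspliced. Introns 2 and 4 of the same gene had 87.9% and 85.7% at 34 °C, against 15.8% and 21.7% at 25 °C, and intron 1 had 59.3% at 34 °C, against 9.68% at 25 °C. All 3 of these rose. Intron 3 starts with GTGAGT and holds CTAAC, and an annotated exon on the opposite strand overlaps it, and such exons also overlap the other 3 introns of the gene. Whether reads of such an exon entered the unspliced count of intron 3 was not tested.

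The kinase gene mug27, also called slk1, acts in the making of the forespore membrane, and its introns had the largest and the third largest change of the set. Intron 2 rose to 81.0% at 34 °C (34 of 42 reads, 65.9 to 91.4), against 0 of 102 reads at 25 °C, which allows up to 2.94%. Intron 1 rose to 79.8% at 34 °C (225 of 282, 74.6 to 84.3), against 3.80% at 25 °C (33 of 869, 2.63 to 5.29). The intervals of these 2 changes, 66.2 to 90.0 points and 70.7 to 80.4 points, overlap.

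Genes for spore wall assembly, mug56 and mug65, had 4 measured introns, and all 4 rose, where 82.6% of all measured introns did. The intron of mug56 was 72.5% unspliced at 34 °C (182 of 251 reads, 66.5 to 77.9) and 13.3% at 25 °C (63 of 474, 10.4 to 16.7). In mug65 intron 2, at 272 nt the longest mug intron with known coordinates, rose to 74.5% at 34 °C, against 5.22% at 25 °C. Introns 1 and 3 of mug65 had 36 of 71 and 38 of 95 reads unspliced at 34 °C, against 12 of 336 and 21 of 645 at 25 °C.

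Genes for metabolic enzymes had 9 measured introns in 3 genes, and all 9 rose, where 82.6% of all measured introns did, with a median change of 37.9 points. In mug182, for the NADHX epimerase that repairs damaged NADH, the 3 introns were 56.7%, 67.4% and 67.3% unspliced at 34 °C, against 22.2%, 23.9% and 8.47% at 25 °C. In mug62, for a putative AMP-binding enzyme, intron 1 rose to 61.4% at 34 °C (102 of 166), against 3.13% at 25 °C (10 of 319). Intron 2 of mug62 rose to 24.8% at 34 °C (51 of 206), against 4.36% at 25 °C (12 of 275). Introns 3 and 4 of mug62 had 42.5% and 22.1% at 34 °C, against 4.59% and 0 of 36 reads at 25 °C. In mug72, for an oxidoreductase, introns 1 and 2 rose to 59.2% and 23.2% at 34 °C, against 14.4% and 3.13% at 25 °C. The gene of a TPR repeat protein, mug93, had small but called rises, to 14.7% and 9.92% at 34 °C, against 0 of 150 reads and 1.75% at 25 °C.

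The other measured introns belong to 10 genes whose annotated product is the gene name alone. All 11 rose, where 82.6% of all measured introns did, with a median change of 41.1 points. The changes above 70 points were those of mug4, mug162, mug74 and mug157. The intron of mug4 rose to 82.7% at 34 °C (62 of 75 reads, 72.2 to 90.4), against 5.26% at 25 °C (3 of 57, 1.10 to 14.6), a change of 77.4 points. The intron of mug74 rose to 87.9% at 34 °C (575 of 654, 85.2 to 90.3), against 14.8% at 25 °C (84 of 567, 12.0 to 18.0), a change of 73.1 points. The intron of mug157 rose to 78.6% at 34 °C (121 of 154, 71.2 to 84.8), against 7.14% at 25 °C (21 of 294, 4.48 to 10.7). As printed above, the mug4 intron starts with GTATGT and holds CTAAC.

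Intron 2 of mug162 rose to 85.7% at 34 °C (42 of 49), against 10.7% at 25 °C (3 of 28), and the intron of mug95 rose to 80.6% at 34 °C, against 11.3% at 25 °C. The intron of mug110 rose to 41.4% at 34 °C (106 of 256), against 0.324% at 25 °C (3 of 925, 0.0669 to 0.945), where it was almost fully spliced. The intron of mug98, the deepest of a mug gene with 1 intron, rose to 45.1% at 34 °C (398 of 883, 41.8 to 48.4), against 16.1% at 25 °C (537 of 3328, 14.9 to 17.4). The intron of mug121 rose to 47.6% at 34 °C, against 9.09% at 25 °C, and that of mug130 to 22.9% at 34 °C, against 6.24% at 25 °C. In mug126, intron 4 rose to 49.6% at 34 °C (340 of 686), against 17.0% at 25 °C (34 of 200). Intron 3 of mug126, which shares the 5′ splice site GTAAGT with intron 4, had 11.7% at 34 °C (49 of 420) and 3.95% at 25 °C (6 of 152), a rise with an adjusted p of 0.00773 by Fisher's exact test.

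Whether introns of 1 mug transcript changed alike was tested on their log2 odds ratios (0.5 added to every cell) with a Wald chi-square test of the difference. The p-values were adjusted by Benjamini-Hochberg over all 1825 pairs of measured introns in the table. Of 47 pairs in 12 mug genes, 7 pairs in 3 genes differed, where 11.4% of all pairs did. At an unadjusted p under 0.05 by the same test, 11 of the 47 mug pairs differed, and so did 426 of all 1825 pairs. In mug137 intron 6 differed from each of the other 5, with the widest gap to intron 2, whose log2 odds ratio was 5.96 against 2.82 for intron 6 (difference 3.14, SE 0.61, adjusted p = 9.86e-06, Wald chi-square test). In mug62 intron 1 (5.55) differed from intron 2 (2.80), with an adjusted p of 0.00162. In mug64 intron 3 (4.19) differed from intron 4 (1.28), with an adjusted p of 0.00162. In mug64 the log2 odds ratio of intron 2 minus that of intron 3 was -2.42 with an SE of 0.98, and it missed the threshold by the Wald chi-square test (adjusted p = 0.0893). Annotated exons on the opposite strand overlap all introns of mug137 and mug64, and their part in the differences was not tested. In mug126 the log2 odds ratios of introns 3 and 4, 1.59 and 2.25, gave no call by this test (Wald chi-square, adjusted p = 0.609), although their unspliced shares at 34 °C were far apart. In mug161 the log2 odds ratio of intron 3 was 3.21, and its pairs with introns 1, 2 and 4 gave no call. The adjusted p was 0.945, 0.636 and 0.798 (Wald chi-square test), with wide SEs of 2.33, 2.19 and 2.19.

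**Figure D3:**
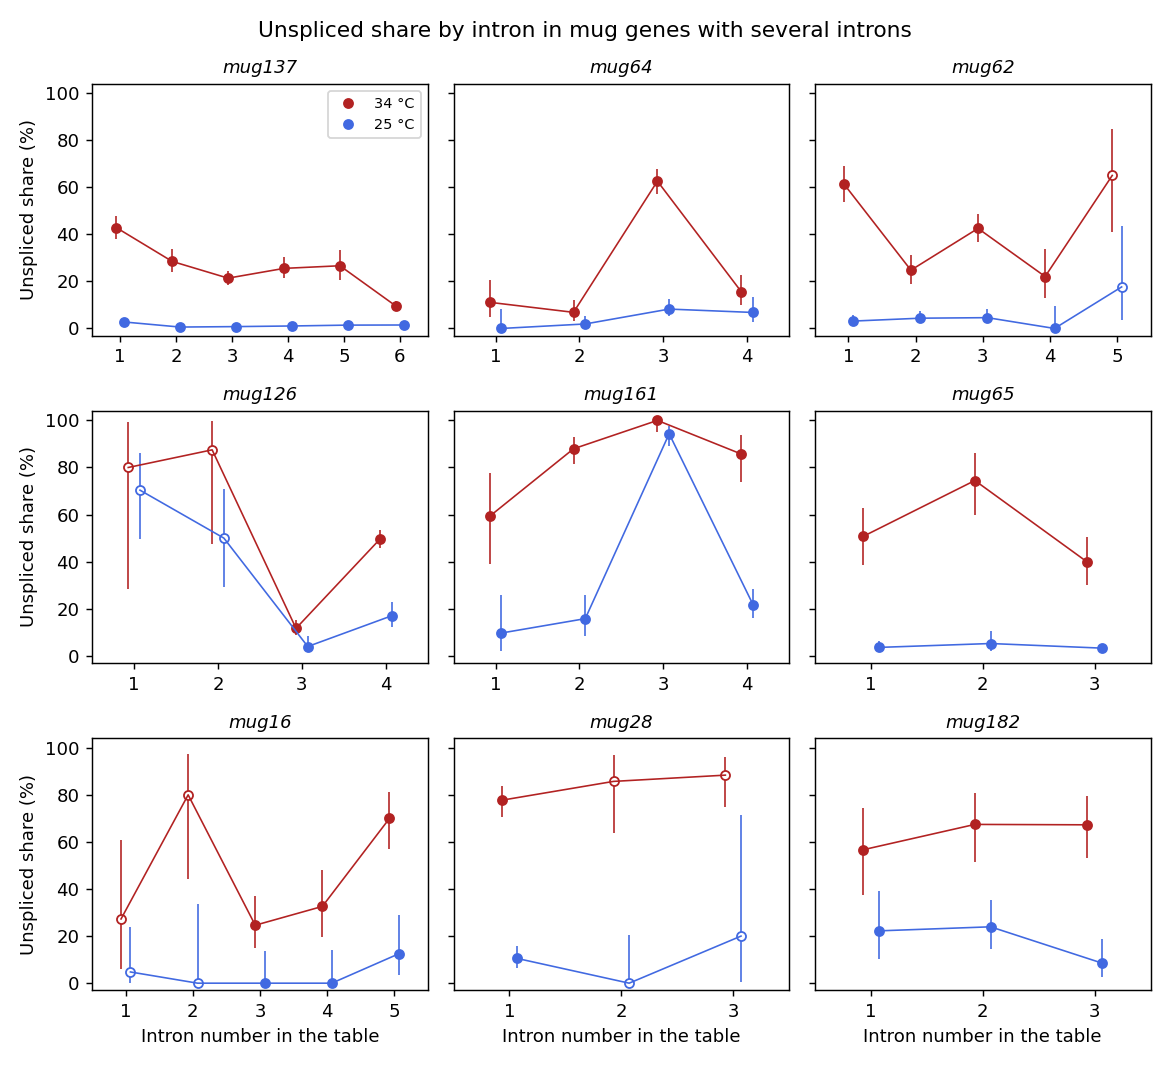
Unspliced share in percent (y axis) by intron number in the table (x axis) for 9 mug genes with several introns, at 34 °C in red and 25 °C in blue, with exact 95% intervals for counting error. Open points are introns with fewer than 20 reads in a library. Intron 6 of mug137 and introns 1, 2 and 4 of mug64 stay low at 34 °C, and intron 3 of mug161 is high in both libraries.

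The remaining 23 mug introns had fewer than 20 reads in at least 1 library, and 9 mug genes had no measured intron. Pooled, these 23 introns were 74.3% unspliced at 34 °C (243 of 327 reads, 69.2 to 79.0) and 18.3% at 25 °C (73 of 398, 14.7 to 22.5). All 2866 such shallow introns of the table were 52.1% unspliced at 34 °C and 11.4% at 25 °C. The deepest shallow introns included that of mug30, a ubiquitin ligase gene, where 9 of 14 reads were unspliced at 34 °C, against 7 of 81 at 25 °C. In intron 2 of mug184, 14 of 16 reads were unspliced at 34 °C, against 0 of 51 at 25 °C. Its intron 1, with few reads, went the other way, with 3 of 5 unspliced at 34 °C and 10 of 14 at 25 °C. In intron 3 of mug170, 16 of 19 reads were unspliced at 34 °C, against 0 of 38 at 25 °C. In intron 2 of mug174, 53 of 58 reads were unspliced at 34 °C, against 5 of 8 at 25 °C. That intron thus gave 58 of the 327 pooled reads at 34 °C and 8 of the 398 at 25 °C.

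In mug28, whose first intron rose, introns 2 and 3 had 18 of 21 and 38 of 43 reads unspliced at 34 °C, against 0 of 16 and 1 of 5 at 25 °C. The gene mug20, whose product belongs to the linear elements of meiotic chromosomes, had, over both introns, 10 of 27 unspliced reads at 34 °C, against 3 of 19 at 25 °C. The genes mug8, mug9, mug10, mug15, mug37 and mug45 had at most 18 reads each in either library, and mug37 had 0. Their introns give no usable share of their own.

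Reads per gene were summed over spliced and unspliced reads of all its introns and divided by the library total. In a whole culture, fewer cells at a stage and less RNA per cell cannot be told apart. Of 27 mug genes with at least 40 reads over both libraries, 8 were over 2-fold lower at 34 °C, where 7.61% of all 1813 such genes were, and 3 were over 2-fold higher, where 37.9% of all genes were. The median 34 °C over 25 °C ratio was 0.995 for the mug genes and 1.65 for all genes, which is 0.72 on the log2 scale. Scaled by that median instead, 10 mug genes were over 2-fold lower and 2 over 2-fold higher, beside 17.2% and 13.5% of all genes. With the totals as scale, 21 of the 27 mug genes lay below the median of all genes.

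The 8 lower genes differed in role. The gene mug121 had 63 reads at 34 °C and 550 at 25 °C, a ratio of 0.148 (exact conditional binomial 95% interval 0.112 to 0.192). The spore wall gene mug65 had 213 reads at 34 °C and 1115 at 25 °C, a ratio of 0.246 (0.212 to 0.286). The gene mug30 had 14 reads at 34 °C and 81 at 25 °C, a ratio of 0.223 (0.117 to 0.396). The best covered were mug137, with 3118 reads at 34 °C and 9961 at 25 °C (0.404, 0.388 to 0.421), and mug98, with 883 at 34 °C and 3328 at 25 °C (0.342, 0.318 to 0.369). The ratio was 0.357 for mug110, 0.417 for mug184 and 0.431 for mug27. None of the 8 intervals reaches 1, but the genes were picked for low ratios, so this adds no support. The intervals cover counting error only.

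The 3 higher genes were mug126, mug174 and mug16. The gene mug126 had 1119 reads at 34 °C and 403 at 25 °C, a ratio of 3.58 (3.19 to 4.02). Its introns did not go the same way: introns 3 and 4, which an exon on the opposite strand overlaps, had ratios of 3.57 and 4.43, and introns 1 and 2, with few reads, had 0.239 and 0.430. The coilin gene mug174 had 80 reads at 34 °C and 29 at 25 °C, a ratio of 3.56 (2.30 to 5.65). That call rested on its intron 2, outside the coding part, with 58 reads at 34 °C and 8 at 25 °C, while intron 1 alone had a ratio of 1.35 (0.709 to 2.58), under 2-fold. The gene mug16 had 192 at 34 °C and 111 at 25 °C, a ratio of 2.23 (1.76 to 2.85). Scaled by the median gene, mug16 was under 2-fold higher. Counting spliced reads alone, scaled by spliced totals, 16 of 25 mug genes were over 2-fold lower at 34 °C, where 13.8% of all genes were, and 2 were over 2-fold higher, where 34.0% of all genes were. The 2 were mug126, with 719 spliced reads at 34 °C and 332 at 25 °C, and mug16, with 108 at 34 °C and 106 at 25 °C. Their scaled ratios were 4.35 (3.81 to 4.97) for mug126 and 2.05 (1.55 to 2.70) for mug16. The spliced counts of mug16 were almost equal, so its ratio comes from the scaling by spliced totals, and its interval reaches under 2-fold. Among the lower genes by spliced reads, mug27 had 65 spliced reads at 34 °C and 938 at 25 °C.

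Spliced reads per junction, which do not depend on intron length, ranked the mug genes at 25 °C from mug98 with 2791 and mug137 with 1638 to mug110 with 922, mug130 with 842 and mug121 with 500. At 34 °C, mug130 came first with 647 spliced reads per junction, ahead of mug98 with 485 and mug137 with 407. The gene mug126 followed with 180 spliced reads per junction at 34 °C, against 83.0 at 25 °C.

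**Figure D4:**
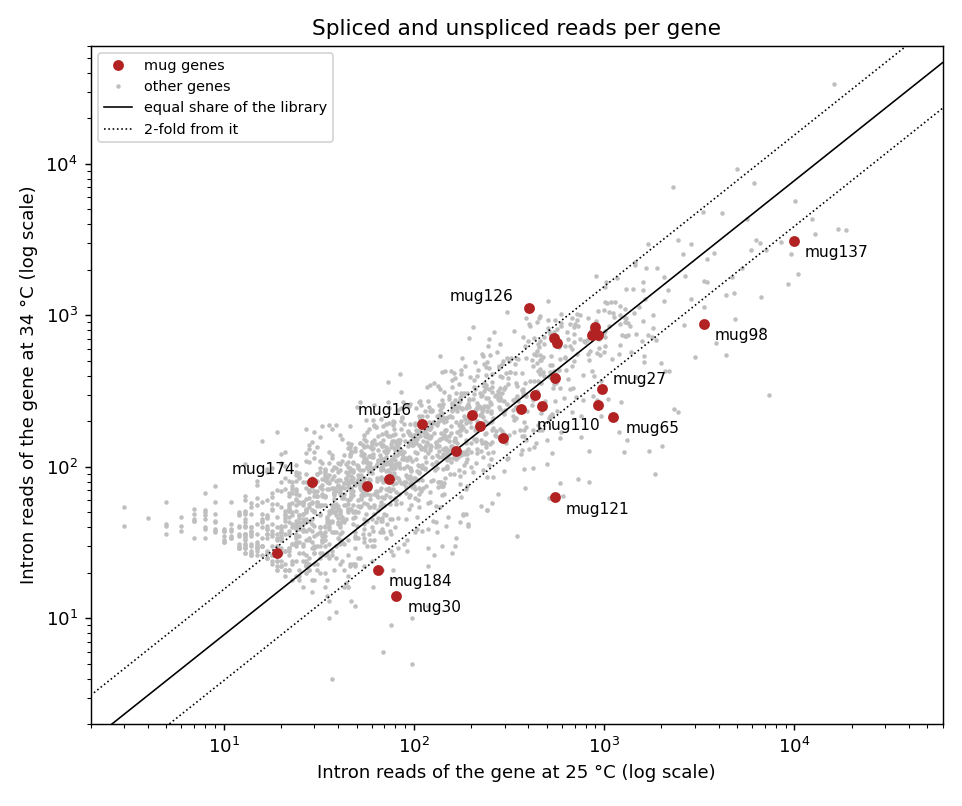
Spliced and unspliced reads per gene at 34 °C (y axis, log scale) against 25 °C (x axis, log scale) for genes with at least 40 reads over both libraries, with the 27 mug genes in red and other genes in grey. The solid line marks an equal share of both libraries and the dotted lines a 2-fold difference from it. The 8 labelled genes under the lower dotted line run from mug121 to mug27, and mug126, mug174 and mug16 lie above the upper one.

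Features of the mug introns that play no part in their choice were read from the annotation. Of 67 mug introns in genes whose intron number matches the annotation, 64 lie in the coding part. The other 3 are introns 1 and 2 of mug126 and intron 2 of mug174. Reading the coding frame into the intron met a stop codon in 55 of the 64 (85.9%), against 86.3% of 4887 coding introns of the table. The 9 without one include intron 4 of mug126, intron 4 of mug64 and intron 1 of mug65, none of which has a length that is a multiple of 3. In 3 of the 9, intron 1 of mug20 (54 nt), intron 1 of mug184 (156 nt) and an intron of mug16 (93 nt), the length was a multiple of 3, so that there was neither a stop nor a shift of frame.

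The commonest 5′ splice site, GTAAGT, opened 14 of the 67 mug introns (20.9%) and 27.5% of 5037 introns of the table. One of the 4 branch-site words stood in the final 60 nt, read on the transcript strand, in 45 of the 67 (67.2%) and in 75.5% of all. Over 40 measured mug introns with a known place, the 12 with GTAAGT had a median change of 33.5 points and the 28 with another site 53.7 points. Over all such introns of the table these medians were 22.7 points for GTAAGT and 37.3 points for other sites. The numbering direction in minus-strand genes was itself judged by how the 5′ splice site goes with the change. Part of the gap between these medians may therefore be built into the placing, and its size was not tested. The 9 mug introns of at least 100 nt had a median change of 27.9 points, the 14 of 51 to 99 nt 44.8 points and the 17 of at most 50 nt 41.1 points. All introns of these lengths had 22.7, 32.2 and 41.1 points. The 26 mug introns with a branch-site word had a median change of 44.1 points, and the 14 without one had 40.6 points. In the table as a whole, 1757 introns with a word had 32.2 points and 524 without one had 32.3 points. The 9 mug genes with a single, measured intron had a median change of 59.2 points, against 26.7 points for all 518 such genes. The mug introns of genes with more than 1 had 36.7 points, against 34.7 points in the table. These medians are descriptions and were not tested.

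An annotated exon of another gene on the opposite strand overlaps 43 of the 67 mug introns (64.2%), and 59.9% of all placed introns. Among the overlapped mug introns are all those of mug137, mug64 and mug27. The use of strand in counting is not given in the sources used here, and the part of such reads in the unspliced counts was not tested. The 9 measured mug introns with a known place and no such overlap lie in mug157, mug170, mug174, mug4, mug56 and mug65. All 9 rose, with a median change of 59.2 points, and 794 of all 941 such introns of the table rose too. The median change of those 941 introns is not given here, so the 59.2 points stand without a like comparison.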

How the data were processed

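PolyA RNA of a pat1_as2 prp2-1 strain was sequenced from 1 library per temperature. The authors deposited a table with spliced and unspliced counts per intron, whole and unscaled, per the file headers. Per the submitters' processing notes, the tools included TopHat and SAMtools. Not given in the sources used here are the build, annotation, counting tool, use of strand and what counts as unspliced, so a long intron may gather more such reads. A smaller deposited table holds 1340 of the introns with the same counts and was not used.

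Genes were matched to RefSeq symbols, 2541 of 2548. A further 42 genes have a mug name only as a synonym and were not taken. The members and lists were chosen with earlier results of these data known. Genes with a measured intron were named, and of the others mug184, with at least 20 reads in each library. The remaining ones are named to account for every member. Introns with at least 20 reads in each library were tested by Fisher's exact test (SciPy 1.17.1, Python 3.11.15), and introns or pairs with an adjusted p under 0.05 were called. Pairs of introns were compared by a Wald chi-square test on log2 odds ratios. Both tests were also run on simulated binomial counts in which a minority of introns changed. Those counts held no PCR copies, so the run does not show how the tests err on these data. Reads per gene used at least 40 reads over both libraries and a fold of 2, with no test. Groups by product were formed from the annotation after values were seen.

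Introns were placed by number in the ASM294v3 annotation, which may differ from that of the authors. Numbers were taken to run from the left end of the chromosome on both strands. In minus-strand genes whose systematic name ends in c, as the name of a minus-strand gene should, Spearman's rho across 840 introns, between how well the first bases score as a 5′ splice site and the change, both taken within genes, was -0.192 in that direction and 0.0354 in the other. For minus-strand genes without that ending it was -0.0801 and -0.0851, so the 7 introns of mug16 and mug72 were not tied to single coordinates. The 5 introns of mug62 were not placed, since the annotation has 6. Of the 72 introns, 67 belong to genes whose introns were matched as a set, and 60 of these were tied to single coordinates. Counts of features use the 67 and changes by feature the measured ones of the 60. Minimum reads, test, adjustment, scaling and choice of introns were varied as alternatives.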

Additional observations from a re-analysis of the deposited data

How the results depend on the processing

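The count of 46 mug introns called higher was 52 of 56 with a minimum of 10 reads, 34 of 37 with 50 reads, 51 of 55 with 40 reads over both libraries, 44 of 49 by a Wald test and 38 of 49 with Holm adjustment. Over all introns the counts were 2553 of 3397 with 10 reads, 2377 of 3037 with 40 reads over both libraries, 2011 of 2508 by the Wald test and 1433 of 2508 with Holm adjustment. With the deepest intron of each gene it was 24 of 24, and over introns of known place that no other gene's exon overlaps 9 of 9, both with fewer introns to count. The median change of 38.5 points was 42.3 with a minimum of 10 reads, 41.1 with 40 reads over both libraries, 49.5 with the deepest intron of each gene and 59.2 without overlapping exons, and the same with 50 reads. The 2071 introns of the table called higher became 1195 of 1362 with a minimum of 50 reads, 1186 of 1441 with the deepest intron of each gene and 794 of 941 without overlapping exons, again with fewer tested. The pooled share of shallow mug introns at 34 °C, 74.3%, was 65.4% as a mean over the introns, and the cause was not tested. The 8 mug genes over 2-fold lower became 16 of 25 with spliced reads alone, which leaves out unspliced reads by construction. The 7 differing pairs stayed at 7 with 1 added to each count and at 7 of 29 pairs with 50 reads. No paired analysis was possible because the libraries form a single pair, parts of 1 culture, with 1 library per temperature. Depth limits what the shallow introns show, and with 1 library per temperature no setting replaces replication.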

Other observations

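Reads did not change evenly along some mug genes. In mug126, introns 1 and 2, which lie outside the coding part, had 5 and 8 reads at 34 °C and 27 and 24 reads at 25 °C. Introns 3 and 4 had 420 and 686 reads at 34 °C and 152 and 200 reads at 25 °C. Scaled by library totals, the 34 °C over 25 °C ratio was 0.239 (exact 95% interval 0.0719 to 0.629) for intron 1 and 0.430 (0.167 to 0.990) for intron 2, against 3.57 (2.95 to 4.32) for intron 3 and 4.43 (3.78 to 5.21) for intron 4. Introns 1 and 2 were also poorly spliced at 25 °C, with 19 of 27 and 12 of 24 reads unspliced. An exon on the opposite strand overlaps introns 3 and 4 and not introns 1 and 2, and its part in these values was not tested.

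In mug28 the ratio was 11.1 (4.40 to 35.9) for intron 3, with 43 reads at 34 °C and 5 at 25 °C, and 1.12 (0.898 to 1.39) for intron 1. In mug174 it was 9.35 (4.45 to 22.7) for intron 2, which lies outside the coding part, and 1.35 (0.709 to 2.58) for intron 1. In mug161 it was 2.39 (1.80 to 3.21) for intron 2 and 0.393 (0.286 to 0.532) for intron 4. These introns were chosen after their values were seen, the intervals cover counting error only, and the differences between introns of a gene were not tested.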
